A study of Mus musculus with 6 samples.

Results

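The genes described are those of the insulin-like growth factor (IGF) system that 3 mouse expression chips carry: the ligand Igf1, its receptor Igf1r and the binding protein genes Igfbp2 to Igfbp7. Members were the probe sets whose single annotated gene symbol is one of these 8 genes. That gave 17 probe sets for 7 genes, out of 36701 probe sets in all, which name 15964 genes. Igfbp5 had no probe set with its symbol alone and 1 that lists it together with another gene, so no value is given for it. Of the 17 probe sets 11 were on U74Av2, 4 on U74Bv2 and 2 on U74Cv2. The wild-type group is total RNA that the labels assign to spermatogonia, which are the dividing germ cells of the testis, from mice 1 week old on a mixed background of 129sv and C57Bl/6. The null group has the same description with Zfp145 knocked out, the gene of the zinc finger repressor PLZF, whose current symbol is Zbtb16. There was 1 array per genotype and chip, so there are 6 arrays, no replicates and no p-values. The labels name no allele, no way of isolating the cells, no number of animals and no pooling, and they do not say whether the 3 chips received the same extract.

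IGF1 and IGF2 are small secreted hormones related to insulin that act in serum and, made locally, within tissues. Both signal through the IGF1 receptor, a tyrosine kinase that passes the signal through adaptor proteins to the PI3K and AKT arm and the RAS and ERK arm, which promote growth, survival and division. Binding proteins hold the ligands outside the cell, extend their life and in most settings keep them from the receptor, until proteases such as pappalysin cut them and release the ligand. In the young testis, somatic cells are known sources of IGF1, and receptors for insulin and IGF1 are needed for the growth of the Sertoli cell population that later supports germ cells.

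Intensities are the deposited values in arbitrary units. Ratios are log2 of null over wild type within a chip, after a small rescaling of the null array and after raising values under a floor, the 40th percentile of the chip, to that floor. The floors were 98.3 (U74Av2), 165 (U74Bv2) and 124 (U74Cv2). Where 1 array is at the floor the ratio is a bound. The only repeated measurement is that genes can have several probe sets, so a ratio is read against how far apart the probe sets of 1 gene lie on a chip (the spread), within the same band of signal level out of 3 bands of equal size, called low, middle and high. It ran from 0.16 to 0.39 on U74Av2, from 0.27 to 0.35 on U74Bv2 and from 0.35 to 0.61 on U74Cv2. This spread holds no difference between animals. U74Cv2 stands apart, since 11.1% of its probe sets above the floor on at least 1 array differed at least 2-fold, against 1.82% on U74Bv2 and 0.908% on U74Av2. The targeted gene Zbtb16 read 770.2 in the wild-type array and 158.1 in the null on U74Av2, and 1156.8 and 510.8 on U74Cv2, at ratios of -2.29 and -1.20. Its other U74Av2 probe set was under the floor on both arrays, and the removed part of the gene is not named in the labels.

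Most IGF probe sets differed by less than 1.5-fold between wild-type and null arrays, with 2 of 15 past that size. An Igfbp3 probe set with the null array at the floor is not among the 2, but its ratio is a bound of at least 1.28-fold. Of the 17 probe sets 15 passed the floor on 1 array or both, 13 of them on both, and 7 had ratios above 0 and 8 below. The largest ratio among them was that of Igfbp7, whose signal in the null array was at least 2.10-fold below the wild type, in a gene with 1 dim probe set. Igf1r, the receptor, was higher in the null array in 3 probe sets, by up to 1.41-fold, and lower in the other one. On U74Av2 1 of 10 probe sets above the floor reached 2-fold, beside the background of 0.908% there, and none of 3 did on U74Bv2 or of 2 on U74Cv2. With so few probe sets a single one sets these shares.

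**Figure D1:**
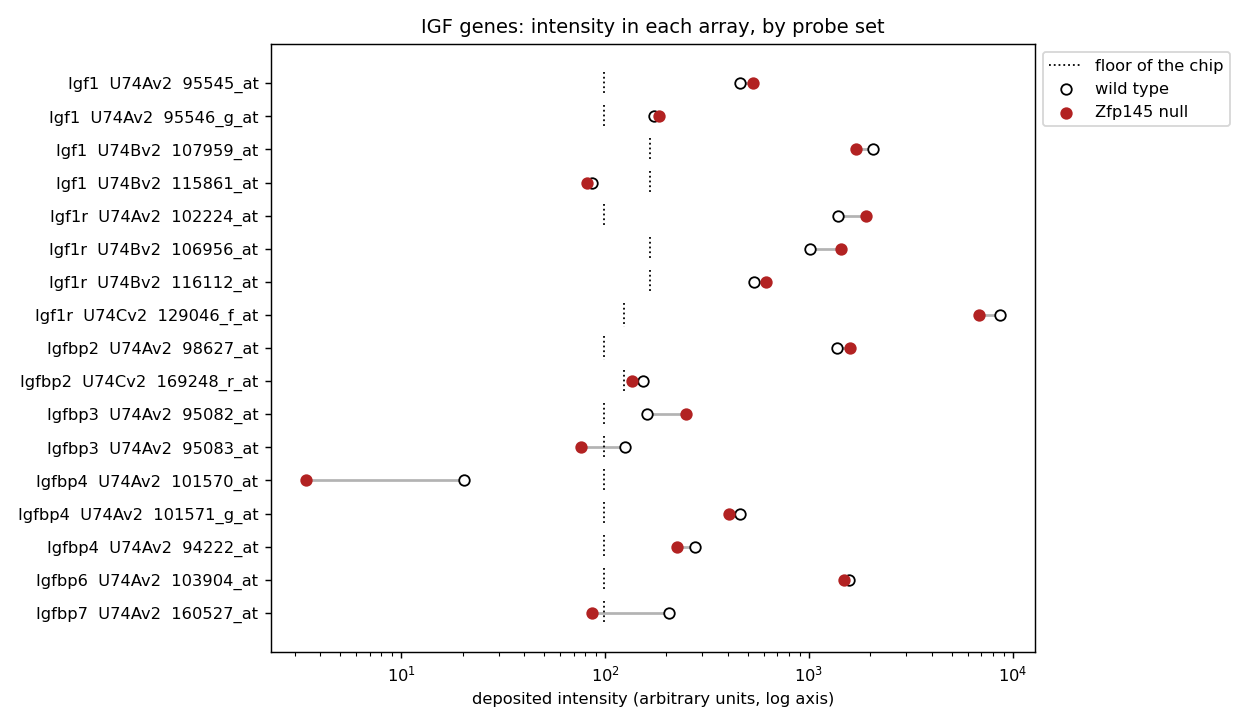
Deposited intensity of the 17 IGF probe sets (horizontal log axis, arbitrary units), 1 row per probe set with its gene, chip and name, with the wild-type array as an open circle, the null array as a filled circle and the chip's floor as a dotted tick. The circles lie close together in most rows. Those of Igfbp7 and of the lower Igfbp3 probe set (125.4 and 76.4) stand on either side of the floor. For Igf1 and Igfbp4, 1 probe set each lies below the floor on both arrays.

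The ligand Igf1 had 4 probe sets, and they gave no common direction. On U74Av2 one read 456.8 in the wild-type array and 531.9 in the null, a ratio of 0.21, and the other, whose name carries a suffix that can mark sharing between transcripts, read 173.9 and 183.1, a ratio of 0.07. Both ratios lay within the spread between probe sets, at 0.28 and 0.39 for their levels. On U74Bv2 one Igf1 probe set read 2057.8 in the wild-type array and 1696.8 in the null, a ratio of -0.28, where the spread was 0.27. This is the one Igf1 probe set with a ratio below 0 and it is in the high band of signal on its chip. The fourth read 86.6 and 81.8, under the floor on both arrays, and gives no ratio. The mean over the 3 measured probe sets was -0.00 ± 0.25 (SD over probe sets, not animals).

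The receptor gene Igf1r was above the floor on both arrays in all 4 of its probe sets, on all 3 chips. On U74Av2 it read 1380.5 in the wild-type array and 1900.4 in the null, a ratio of 0.45, or 1.37-fold higher, where the spread between probe sets was 0.16. On U74Bv2 one probe set read 1013.6 and 1432.1, a ratio of 0.49, and another 539.2 and 617.1, a ratio of 0.19, where the spreads were 0.27 and 0.35. These 3 probe sets are of plain design and all read higher in the null array, 2 of them by more than the spread. The probe set on U74Cv2 went the other way, reading 8654.6 in the wild-type array and 6841.8 in the null, a ratio of -0.36 where the spread was 0.35, and its name carries the suffix for probes shared within a sequence family. The mean over the 4 probe sets was 0.19 ± 0.39 (SD over probe sets). Ratios as large as that on U74Av2, in either direction, were read by 5.52% of the 2608 probe sets in the same level band, and as large as the higher one on U74Bv2 by 8.69% of 2658.

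Among the binding protein genes, 5 had a probe set above the floor, and their 8 such probe sets had 2 ratios above 0 and 6 below. Of those below 0, the ones measured on both arrays all lay within the spread. Igfbp2, abundant in fetal and neonatal tissues and able to bind integrins, read 1372.1 in the wild-type array and 1595.5 in the null on U74Av2, a ratio of 0.21 where the spread was 0.16. On U74Cv2 a dim Igfbp2 probe set with a suffix read 152.6 and 135.8, a ratio of -0.19 that lay well inside the spread of 0.61. Igfbp3, the main carrier of IGFs in serum, had a pair of dim probe sets of plain design on the same chip that disagreed. One read 160.1 in the wild-type array and 247.9 in the null, a ratio of 0.62, or 1.54-fold higher, and the other 125.4 and 76.4, with the null under the floor, so at least 1.28-fold lower. The spread there was 0.39, and no common direction can be given for Igfbp3.

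Igfbp4, which mostly restrains IGF action and is the classic substrate of pappalysin, was lower in the null array in both probe sets above the floor, but within the spread. One, with a suffix in its name, read 457.6 in the wild-type array and 405.5 in the null, a ratio of -0.18 with a spread of 0.28. The other read 275.1 and 224.7, a ratio of -0.30 with a spread of 0.39. The third Igfbp4 probe set read 20.2 and 3.4, far under the floor on both arrays. Igfbp6, whose protein prefers IGF2 over IGF1, was bright and read nearly alike, reading 1563.9 in the wild-type array and 1489.7 in the null, a ratio of -0.08 where the spread was 0.16.

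Igfbp7, a secreted protein of vessel walls and stroma with low affinity for IGFs, read 206.5 in the wild-type array and 85.9 in the null on U74Av2. The null value lies under the floor, so the signal was at least 2.10-fold lower, a ratio of -1.07 or below. Ratios of that size or larger in either direction were read by 1.27% of the 2607 probe sets in the low band on that chip, where the spread was 0.39. This is the gene's one probe set, it is dim, and no other array repeats it. With the floor at the 60th percentile both arrays lay at the floor and the difference could not be read.

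**Figure D2:**
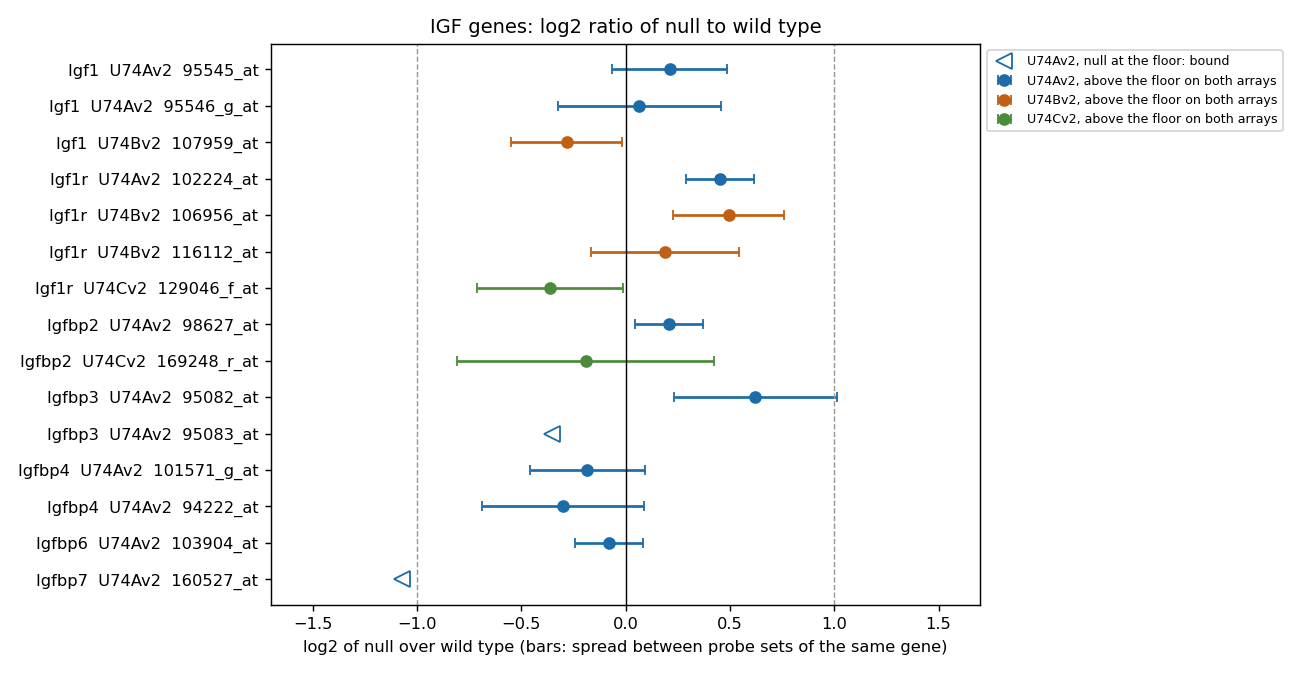
Log2 ratio of null over wild type (horizontal axis) for the 15 IGF probe sets above the floor on at least 1 array, coloured by chip. Bars show the spread for the chip and level band, open triangles without bars are bounds with the null array at the floor, and dashed lines mark 2-fold. The bound of Igfbp7 at -1.07 lies past the 2-fold line, and 6 of the 13 bars do not reach 0, among them those of Igf1r on U74Av2 (0.45) and of its higher probe set on U74Bv2 (0.49).

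Of the 15 ratios, 7 were larger than the spread for their level. Of those, 2 were more than 2 times the spread, Igf1r on U74Av2 and Igfbp7. The other 8 were no larger as computed, but they include the lower Igfbp3 probe set, whose -0.35 is a bound. That probe set cannot be placed within its spread of 0.39, since its ratio was -0.72 when no floor was applied. Passing the spread was not rare. Ratios as large as that of Igfbp2 on U74Av2 were read by 33.97% of the probe sets in its band. The shares were 28.59% for Igf1 on U74Bv2, 28.79% for Igf1r on U74Cv2 and 11.58% for the higher Igfbp3 probe set. The share of all probe sets past the spread was not computed, so 7 of 15 has no background beside it. At 1.5-fold, the Igfbp7 probe set and the higher Igfbp3 probe set counted on U74Av2, 2 of 10 where the background was 7.34%. None counted on U74Bv2 and U74Cv2, where the backgrounds were 11.4% and 27.5%. Of the 5 genes with several probe sets above the floor, only Igfbp4 had all its ratios on one side of 0, and 4 were mixed. Over all 4755 genes with several such probe sets, 43.5% had all on one side, so mixed signs are common on these arrays.

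Taking for each gene its probe set of highest level within a chip, 2 of the 7 genes had ratios above 0 (Igfbp2 and Igfbp3) and 5 below. The median over these was -0.18, beside -0.01 over all 12447 genes above the floor, of which 48.5% had ratios above 0. This choice represents Igf1r by its U74Cv2 probe set, with a ratio of -0.36. Leaving that chip out gave a median of -0.08, and with the mean over each gene's probe sets it was -0.00.

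**Figure D3:**
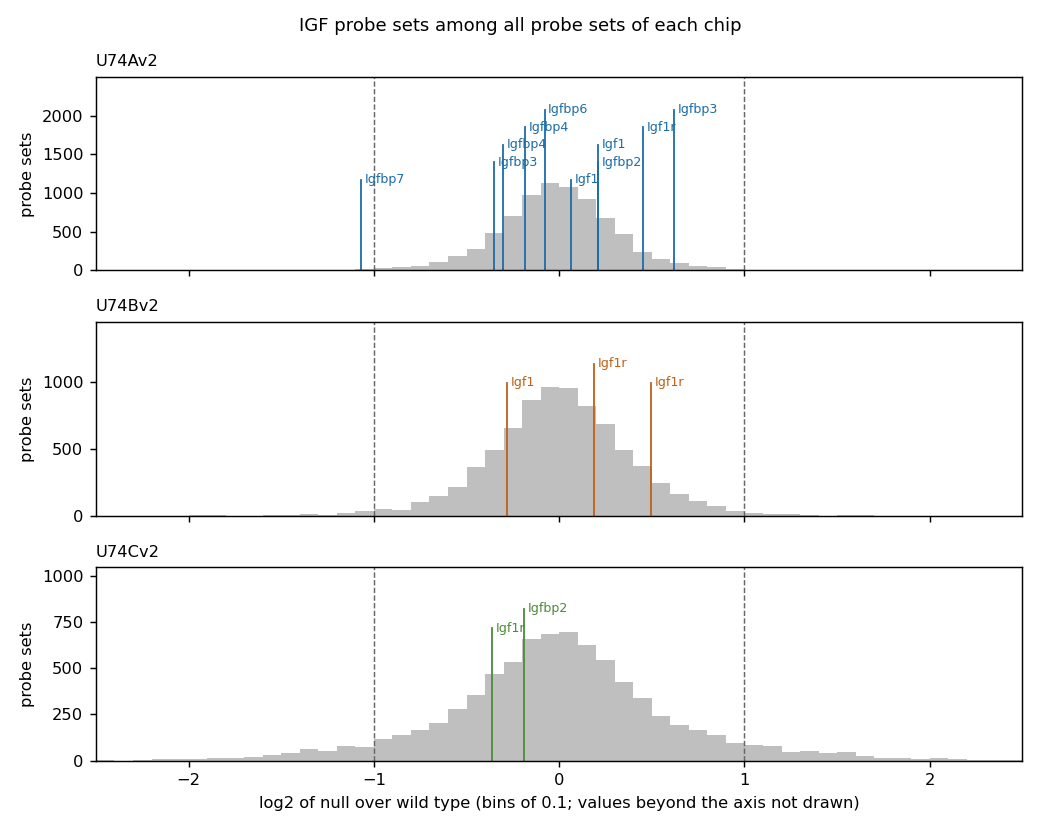
Histograms of the log2 ratio of null over wild type (horizontal axis, bins of 0.1) over all probe sets above the floor on at least 1 array, 1 panel per chip, with the vertical axis counting probe sets and lines marking the IGF probe sets by gene (line heights only separate the names). Dashed lines mark 2-fold, which 0.908%, 1.82% and 11.1% of the probe sets of the 3 chips reach, and Igfbp7 at -1.07 is the one IGF line outside them.

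The other genes of the pathway were taken from a list of 84 in 9 groups, of which 72 had a probe set with a single symbol and 55 were above the floor. With 1 probe set per gene, 1 of these 55 was higher by at least 2-fold with the knockout and none was lower by as much, while 3.05% of all genes differed at least 2-fold. Their median ratio was -0.02, with 26 above 0 and 29 below. The rest of the pathway thus read close to the bulk of the genes, at -0.01.

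Among ligands and receptors other than the members, Igf2 is the growth factor of fetal life. A suffixed Igf2 probe set read 2858.9 in the wild-type array and 2896.2 in the null, a ratio of 0.01. Its plain probe set read 34.1 and 13.1, under the floor on both arrays. The insulin gene Ins2 read 350.9 and 239.1 in a probe set with the family suffix, a ratio of -0.56 where the spread was 0.28. Its other probe set, also suffixed, read 23.6 and 34.2, under the floor on both arrays. At the floor on both arrays were 4 ligand genes of the list, Insl3, Insl5, Insl6 and Rln1. The insulin receptor gene Insr had ratios of -0.14, -0.02 and 0.54 on U74Bv2, and Igf2r, which clears IGF2 to the lysosome, stood at 0.26. The Insr probe sets thus lay on both sides of 0, and another of them on U74Av2 was at the floor on both arrays. The ratio of Igf2r was within its spread of 0.28.

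The liver-type binding protein gene Igfbp1 and Igfals, the partner of IGFBP3 in serum, were at the floor on both arrays. Igfbp1 and Igfbp3 are next to each other among the protein-coding genes of the mouse genome, as are Igfbp2 and Igfbp5. Of the 11 related binding genes 5 were above the floor and none reached 2-fold. The brightest by rank within a chip were the protease gene Htra1, at -0.05 on U74Cv2 and 0.10 on U74Av2, and Kazald1 at 0.03.

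Pappa, which encodes pappalysin, the protease that cuts IGFBP4, was the one pathway gene at least 2-fold different. It read 189.4 in the wild-type array and 541 in the null on U74Cv2, a ratio of 1.49, or 2.81-fold higher, where the spread was 0.49. It has no other probe set, and this chip had 11.1% of its probe sets past 2-fold. Stc2, an inhibitor of pappalysin singled out after the values were seen, read 207.3 and 114.5 on U74Av2, a ratio of -0.87 with a spread of 0.39. Its U74Bv2 probe set read 142.5 and 75.5, under the floor on both arrays.

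Downstream of the receptor no gene reached 2-fold by its highest-ranking probe set. Of 13 adaptors and inhibitors above the floor 7 had ratios above 0, with the phosphatase gene Ptpn11 at -0.20 and 0.02 on U74Bv2 and 0.36 on U74Av2, a bound with the wild type at the floor, and the receptor inhibitor Grb14 at 0.82 on U74Cv2 but -0.22 on U74Bv2. In the PI3K and AKT arm the 15 genes ranged from -0.34 to 0.36, with the kinase Gsk3a at 0.13 and the forkhead factor Foxo3 at -0.13. Lower-ranking probe sets of this arm did reach 2-fold, Gsk3b at 1.07 beside -0.34, 0.24 and -0.28, and Bad at -1.06 as a bound beside 0.09. In the RAS and ERK arm the 6 genes ranged from -0.51 to 0.43, with Nras at 0.08 and 0.12 and the ERK target Elk1 at -0.27 in its highest-ranking probe set but 0.45, 0.28 and 0.23 in the other ones measured on both arrays. For the growth hormone input, which drives Igf1 transcription, 5 of 6 genes had ratios below 0. Among those 5 only Stat5a passed the spread, at -0.31 and -0.44 in suffixed probe sets where the spread was 0.28. Stat5b stood at 0.29 on U74Bv2, past its spread of 0.27 in the other direction, and at 0.02 on U74Av2. The mRNA-binding protein genes Igf2bp1 and Igf2bp3 stood at -0.02 and 0.23.

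**Figure D4:**
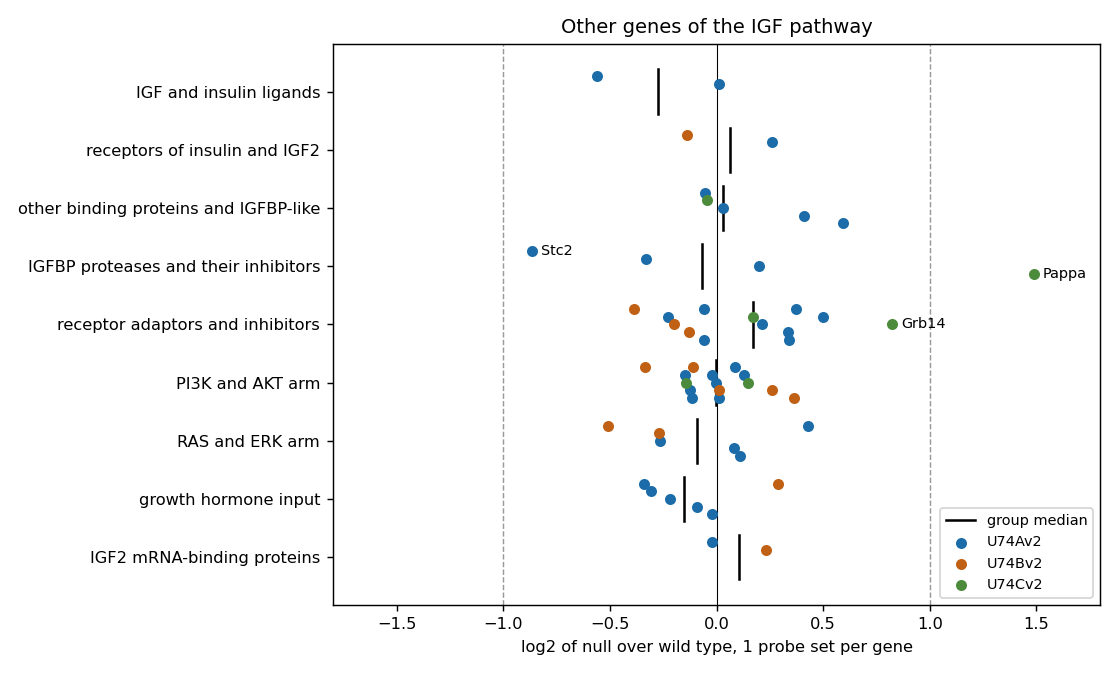
Log2 ratio of null over wild type (horizontal axis) for the 55 other pathway genes above the floor, 1 point per gene from its highest-ranking probe set, in 9 groups by role and coloured by chip. Black bars are group medians and dashed lines mark 2-fold, and Pappa at 1.49, measured on U74Cv2, is the one gene past them (genes beyond 0.8 in size are named).

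The RNA held signal of somatic cells that make or receive IGFs. Some of their markers read differently in the 2 genotypes (1 probe set per gene, at least 1 array above the floor). Over all genes, 48.5% had ratios above 0 and 3.05% differed at least 2-fold. The marker ratios were not read against the spread, and with 1 array per genotype such shifts cannot be told from scatter between arrays. All 15 Sertoli markers were above the floor, with 12 ratios below 0, a median of -0.19, 2 ratios past 2-fold (Rhox5 at -1.04 and Tsx at -1.02) and a summed signal of 66689 in the wild-type array and 57924 in the null. Of 8 Leydig cell markers 6 were above the floor and Insl3 and Hsd3b6 were not, with 5 ratios below 0, a median of -0.27 and sums of 5674 and 4548. The sixth, Hsd17b3, was the one Leydig marker past 2-fold and was higher, with a ratio of 1.20. The 10 macrophage markers had 9 ratios below 0, a median of -0.22 and sums of 24472 and 19362. Fibroblast and interstitial markers were higher in the null, with 6 of 9 ratios above 0, a median of 0.54, Postn past 2-fold at 1.29, and sums of 16680 and 22654.

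Endothelial markers were level. They had 4 ratios above 0 and 4 below, a median of 0.02 and sums of 3022 and 3006, with Tek at the floor. Peritubular myoid markers had a median of 0.02 over 5 genes and sums of 15677 and 13327, with Cnn1 and Des at the floor. The 3 erythroid markers were all below 0, with a median of -0.46 and sums of 4901 and 3093. Spermatogonial markers had 9 of 13 ratios above 0, a median of 0.22 and sums of 22948 and 24925, with Ret at the floor, while the markers past 2-fold were both lower, Zbtb16 itself at -1.20 and Sall4 at -1.32 on U74Cv2. In such mixed RNA, fewer cells of a type and less RNA per cell cannot be told apart, and the part of these shifts in the IGF ratios was not tested.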

How the data were processed

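All 6 arrays were used, 1 per genotype and chip, grouped by their titles. The authors deposited linear intensities per probe set, scaled array by array, since the mean after removing 2% of values at each end was 500.3 for either U74Av2 array, 500.1 for either U74Bv2 array and 500.3 for either U74Cv2 array. The software behind the deposited intensities is not given in the sources used here, nor is a genome build, so no coordinates are printed. Scanner files and detection calls were not used here.

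Controls, 66 probe sets a chip, were removed. Null values were rescaled by the median null to wild-type ratio of the probe sets above the 50th percentile of mean rank, a log2 shift of 0.01, 0.00 and 0.02 on U74Av2, U74Bv2 and U74Cv2. The floor was the 40th percentile of both arrays. The spread is the median absolute difference in log2 ratio within pairs of probe sets that share gene and chip, scaled to an SD and divided by the square root of 2, in 3 bands of level. No test was possible with 1 array per group, so 2-fold differences were counted. The 18S rRNA controls had a median log2 ratio of null over wild type of 0.46 on each chip after the rescaling, so they read higher in the null arrays. What this means for the IGF ratios, such as those of Igf1r, was not tested. Gene names came from GEO's platform annotation, and the 7 genes matched RefSeq genes of GRCm38.p6 by Entrez identifier. Probe sets with a suffix in their name were kept, and outside the members the text does not point out each of them.

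Named were all members, and for each pathway group its genes at least 2-fold different, otherwise the 2 of highest level percentile within a chip. Members and lists were chosen with earlier results of these data known. Software was statsmodels 0.14.6, scipy 1.17.1, pandas 2.3.3, matplotlib 3.10.9 and numpy 2.4.6 under Python 3.11.15. The calculation was tested on simulated data with large changes planted in bright probe sets at low noise. That test does not cover small differences or dim probe sets such as those reported here. Alternatives were other scalings, floors, fold thresholds, probe set choices and leaving out U74Cv2.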

Additional observations from a re-analysis of the deposited data

How the results depend on the processing

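All 15 member probe sets kept the sign of their ratio in every alternative that gave a value. None of the 108 values moved by more than the spread between probe sets, but many of them could not move. For the 13 probe sets above the floor on both arrays, the other floors, plain probe sets only and leaving out U74Cv2 kept the ratio or gave none. Only the other scalings checked those ratios. The count of IGF probe sets at least 2-fold different, 1 as reported, was 0 for a floor at the 60th percentile, 2 with no floor, where the dim Igfbp4 probe set joined, 0 at a 3-fold threshold and 2 at 1.5-fold. It stayed 1 as deposited, with loess or quantile normalization, for a floor at the 20th percentile, with plain probe sets only and without U74Cv2. The median over the IGF genes lay between -0.20 and -0.00. The count of other pathway genes at least 2-fold different, 1 as reported, was 5 for a floor at the 20th percentile, 0 at the 60th, 8 with no floor, 0 without U74Cv2, 0 at 3-fold and 4 at 1.5-fold. Their median lay between -0.05 and 0.03. No paired analysis was possible because each genotype has 1 array per chip. Signals near the floor, such as those of Igfbp7 and Igfbp3, limit what can be read, and the number of arrays limits the precision.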
